A study of Homo sapiens with 20 samples.

Results

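The 10 genes described here belong to the BCL2 family, which decides whether mitochondria release the proteins that start apoptosis. They were chosen by name (BCL2, BCL2L1, MCL1, BCL2A1, BCL2L11, BMF, PMAIP1, BAK1, BID and BIK) and are 10 of the 58870 genes in the RNA-seq counts. With them go the 38 of 54563 consensus Cut&Run peaks that lay within 10 kb of the span of one of these genes. The samples came from A375 and 1205Lu, established human melanoma cell lines, so each line is a single genetic background. For RNA-seq, cells of both lines had received non-targeting siRNAs (si-NT) or siRNAs against FRA1 (si-FRA1, si-FOSL1 in the labels), with 3 samples in each of the 4 groups and 12 in all. FRA1 is a subunit of the transcription factor AP-1 and is encoded by FOSL1. For Cut&Run, which counts DNA fragments cut free around an antibody-bound protein, each line had 3 libraries with an antibody against FRA1 and 1 library with IgG, a non-specific antibody. The labels do not say that replicates were separate cultures, so p-values measure the spread between these samples, which may be technical. RNA was measured in bulk, so fewer cells expressing a gene and less RNA per cell cannot be told apart.

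As background, the family falls into 3 kinds of protein. The survival proteins BCL2, BCL-XL (from BCL2L1), MCL1 and BFL1/A1 (from BCL2A1) hold the death proteins in check. The effectors BAK (from BAK1) and BAX form pores in the outer mitochondrial membrane, and the BH3-only proteins either occupy the survival proteins or switch the effectors on. BH3-only members here are BIM (from BCL2L11), BMF, NOXA (from PMAIP1), BID and BIK. In melanoma, BIM and BMF are known as proteins held down by MAPK signaling, and BCL2A1 is known as a survival gene of the melanocyte lineage.

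RNA-seq totals per sample ranged from 20573412 to 32518903 counts. FOSL1 was at 408 to 424 CPM (counts scaled to a common library size) in A375 si-NT samples and at 25.7 to 26.0 CPM with si-FRA1. In 1205Lu cells it was at 478 to 492 CPM with si-NT and at 65.1 to 70.9 CPM with si-FRA1. Its log2 fold change, si-FRA1 minus si-NT, was -4.01 in A375 and -2.84 in 1205Lu cells, so FRA1 mRNA fell further in A375 cells. SOX10, a melanoma lineage factor, was detected in both lines, at 43.5 to 44.3 CPM in A375 and 902 to 931 CPM in 1205Lu si-NT samples. The 10 melanocyte and melanoma markers summed to 101 to 104 CPM in A375 and 1600 to 1630 CPM in 1205Lu si-NT samples, against 102 to 109 and 1310 to 1340 CPM with si-FRA1. In 1205Lu cells S100A1 fell most on the log2 scale of those tested, from 180 to 192 CPM with si-NT to 71.4 to 73.7 CPM with si-FRA1. SOX10 also fell there, to 777 to 794 CPM with si-FRA1. The pigment genes MLANA, TYR, DCT and PMEL were under 1 CPM in each si-NT sample of both lines. MITF, on the same list, went the other way from SOX10. It was at 49.9 to 54.6 CPM in A375 and 3.29 to 3.74 CPM in 1205Lu si-NT samples. TYRP1 was also lower in 1205Lu si-NT samples, at most 0.312 CPM against 0.829 to 1.09 CPM in A375. The 1205Lu sum was mostly SOX10 and S100B (418 to 435 CPM with si-NT), so it does not speak for every marker. Keratinocyte and leukocyte markers each summed to at most 1.5 CPM in any sample, and the 2 endothelial markers to at most 2.3 CPM. The 4 fibroblast markers summed to 13.1 to 13.8 CPM in A375 si-NT and 26.6 to 27.9 CPM in A375 si-FRA1 samples, against 191 to 199 and 182 to 190 CPM in 1205Lu cells. COL1A1 made up most of the A375 sum (10.8 to 22.6 CPM) and PDGFRA nearly all of the 1205Lu sum (179 to 195 CPM), where DCN and LUM were under 1.5 CPM in each sample. The part of these marker shifts in the values below was not tested.

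FRA1 silencing changed 4 members in each line. In A375 cells the survival genes BCL2 and BCL2L1 fell while PMAIP1 and BAK1 rose, each by less than 1 on the log2 scale. In 1205Lu cells BMF, BCL2L11, BAK1 and MCL1 rose and no member fell, and BMF was the only member past a log2 fold change of 1. BAK1 was the only one of the 8 members tested in both lines that rose in both. BIK had too few counts to be tested in any comparison, and BCL2A1 too few in A375 cells.

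In A375 cells 2 of the 8 members tested rose and 2 fell, at an adjusted p under 0.05 (quasi-likelihood test of edgeR, Benjamini-Hochberg adjustment over all 16899 genes tested). Of all those genes 25.7% rose and 25.1% fell, so the members' counts were close to the background. None of the 8 was also past an absolute log2 fold change of 1, which 5.56% of genes were. In 1205Lu cells 4 of the 9 members tested rose and 0 fell, where 20.6% of the 17136 genes tested rose and 19.9% fell. The 1 member past the fold limit, BMF, compares with 3.13% of genes. The median log2 fold change of the tested members was 0.02 in A375 and 0.16 in 1205Lu cells, against 0.00 over all genes tested in each line. Of the 15056 genes tested in both lines 10.4% rose in both, which 1 of the 8 members did.

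**Figure D1:**
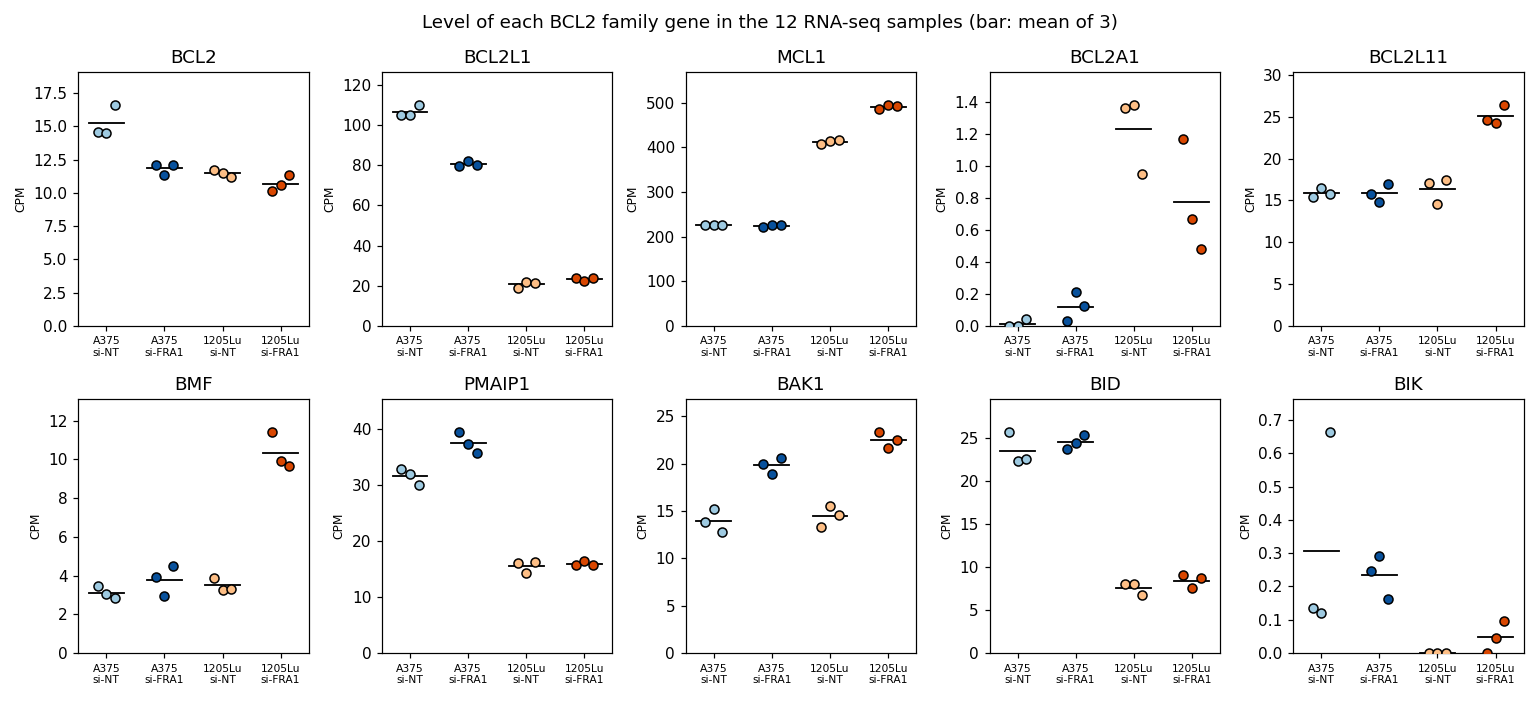
CPM of each of the 10 genes (linear axis from 0) in the 3 samples of each of the 4 groups, with the mean of each group as a bar. The si-FRA1 samples of BMF in 1205Lu cells, at 9.66 to 11.4 CPM, stand above every other BMF sample, and BAK1 is higher with si-FRA1 in both lines.

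BMF (ENSG00000104081.14, chr15:40087890-40108892 on GRCh38, minus strand) encodes a BH3-only protein that is tied to the cytoskeleton until released by stress. It was at 3.44, 3.05 and 2.86 CPM in the A375 si-NT samples and at 3.92, 2.92 and 4.49 CPM with si-FRA1. Those groups overlapped, and the log2 fold change of 0.28 (standard error 0.189) did not pass the test (edgeR adjusted p = 0.24). In 1205Lu cells BMF was at 3.89, 3.25 and 3.33 CPM with si-NT and at 11.4, 9.91 and 9.66 CPM with si-FRA1. The groups did not overlap, and BMF rose 2.91-fold (log2 fold change 1.54, standard error 0.144, edgeR adjusted p = 3.0e-08). The effect was larger in 1205Lu than in A375 cells by 1.27 on the log2 scale (standard error 0.237, adjusted p = 0.00013 for the interaction of line and silencing in edgeR). With si-NT the lines had 3.11 ± 0.295 and 3.49 ± 0.35 CPM (SD, n = 3 each) in A375 and 1205Lu cells, a difference that did not pass the test (adjusted p = 0.25). The promoter of the gene is shown because a Cut&Run peak covers it. Capitals mark GC boxes (GGGCGG or its reverse complement CCGCCC), and bases inside GENCODE exons were left out.
BMF promoter, chr15:40108893-40109129, minus strand: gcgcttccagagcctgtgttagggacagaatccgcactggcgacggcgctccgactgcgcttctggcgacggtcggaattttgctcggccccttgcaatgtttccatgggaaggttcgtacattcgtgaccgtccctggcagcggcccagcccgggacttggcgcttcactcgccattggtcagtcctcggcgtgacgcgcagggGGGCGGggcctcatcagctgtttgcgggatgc

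BCL2L11 (ENSG00000153094.23, chr2:111119378-111168444, plus strand) encodes BIM, which binds all the survival proteins. It was at 15.4, 16.5 and 15.7 CPM with si-NT and at 15.8, 14.8 and 17.0 CPM with si-FRA1 in A375 cells, and the log2 fold change there was -0.01 (standard error 0.0828). In 1205Lu cells it was at 17.1, 14.6 and 17.4 CPM with si-NT and at 24.6, 24.2 and 26.4 CPM with si-FRA1. Every si-FRA1 sample lay above every si-NT sample there, and BCL2L11 rose 1.51-fold (log2 fold change 0.60, standard error 0.0777, edgeR adjusted p = 2.8e-06). The effects in the 2 lines differed by 0.61 on the log2 scale (standard error 0.116, adjusted p = 0.00016 for the interaction in edgeR). Without silencing the lines were at 15.9 ± 0.579 and 16.3 ± 1.54 CPM (SD, n = 3 each), which did not pass the test (adjusted p = 0.25). Gene-level counts do not separate the splice forms of BIM.

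PMAIP1 (ENSG00000141682.11, chr18:59899996-59904305, plus strand) encodes NOXA, which binds MCL1 and marks it for degradation. In A375 cells it was at 32.9, 32.0 and 30.0 CPM with si-NT and at 39.4, 37.3 and 35.7 CPM with si-FRA1. These groups did not overlap, and PMAIP1 rose 1.18-fold (log2 fold change 0.24, standard error 0.0571, edgeR adjusted p = 0.00099). The 1205Lu samples were at 16.0, 14.3 and 16.3 CPM with si-NT and at 15.7, 16.5 and 15.7 CPM with si-FRA1. The groups overlapped there, and the log2 fold change was 0.02 (standard error 0.0837, adjusted p = 0.88). The difference between the 2 effects, -0.21 on the log2 scale (standard error 0.0977), did not pass the test (adjusted p = 0.11), so the effects were not shown to differ between lines.

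BID (ENSG00000015475.18, chr22:17734138-17774770, minus strand) links death receptors to mitochondria once caspase-8 has cut it. It was at 22.4 to 25.7 CPM with si-NT and 23.8 to 25.4 CPM with si-FRA1 in A375 cells, and at 6.79 to 8.06 and 7.54 to 9.06 CPM in 1205Lu cells. The groups overlapped in both lines, and the log2 fold change was 0.05 (standard error 0.0688) in A375 and 0.13 (standard error 0.13) in 1205Lu cells. BIK (ENSG00000100290.3, chr22:43110750-43129712, plus strand), a BH3-only gene named for its binding to BCL2, was counted 3, 3 and 16 times with si-NT and 8, 7 and 4 times with si-FRA1 in A375 cells. It was counted 0 times in each 1205Lu si-NT sample and 0, 1 and 2 times with si-FRA1. A count of 0 over the 3 si-NT libraries allows up to 0.039 CPM (3 counts over the group, counting error only), and a change on silencing was not detectable at this depth.

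BAK1 (ENSG00000030110.13, chr6:33572547-33580293, minus strand), the effector of the set, was at 13.8, 15.2 and 12.8 CPM with si-NT and at 19.9, 18.9 and 20.6 CPM with si-FRA1 in A375 cells. The 1205Lu samples were at 13.3, 15.5 and 14.6 CPM with si-NT and at 23.3, 21.6 and 22.5 CPM with si-FRA1. The groups did not overlap in either line. BAK1 rose 1.41-fold in A375 (log2 fold change 0.50, standard error 0.0828, edgeR adjusted p = 1.9e-05) and 1.54-fold in 1205Lu cells (0.62, standard error 0.0793, adjusted p = 2.2e-06). The effects differed by 0.13 on the log2 scale (standard error 0.117), which did not pass the test (adjusted p = 0.44). Processed pseudogenes of BAK1 had at most 8 counts in any sample. The promoter of BAK1 is shown with the same marks, since a peak lay on it as well. Other members with a peak on the promoter are not shown, among them BCL2L1, whose stretch held 0 GC boxes.
BAK1 promoter, chr6:33580294-33580526, minus strand: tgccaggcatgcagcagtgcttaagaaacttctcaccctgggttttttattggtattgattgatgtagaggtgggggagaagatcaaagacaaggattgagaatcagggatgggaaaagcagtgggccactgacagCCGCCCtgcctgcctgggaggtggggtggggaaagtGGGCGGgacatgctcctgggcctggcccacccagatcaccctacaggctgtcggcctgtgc

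Among the survival genes, BCL2L1 (ENSG00000171552.13, chr20:31664452-31723989, minus strand), which encodes BCL-XL, was at 105, 105 and 110 CPM with si-NT and at 79.8, 82.0 and 80.2 CPM with si-FRA1 in A375 cells. All si-FRA1 samples lay below all si-NT samples, and the gene fell by 0.41 on the log2 scale (standard error 0.0344, edgeR adjusted p = 4.7e-10). The 1205Lu samples were at 18.9, 22.0 and 21.2 CPM with si-NT and at 23.8, 22.1 and 23.9 CPM with si-FRA1. There the log2 fold change was 0.16 (standard error 0.074) and did not pass the test (adjusted p = 0.11), although the groups did not overlap. The effects differed between lines by 0.58 on the log2 scale (standard error 0.0738, adjusted p = 7.3e-07 for the interaction in edgeR). BCL2L1 gives a short, death-promoting splice form besides BCL-XL, and gene-level counts do not separate the forms.

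MCL1 (ENSG00000143384.13, chr1:150560895-150579738, minus strand) encodes a short-lived survival protein. It was at 225, 227 and 227 CPM with si-NT and at 222, 225 and 225 CPM with si-FRA1 in A375 cells, a log2 fold change of -0.02 (standard error 0.0236, adjusted p = 0.45). Its 1205Lu levels were 407, 415 and 416 CPM with si-NT against 487, 495 and 492 CPM with si-FRA1. The 1205Lu groups lay well apart, and MCL1 rose 1.18-fold (log2 fold change 0.23, standard error 0.018, edgeR adjusted p = 1.5e-09). The effects differed by 0.27 on the log2 scale (standard error 0.029, adjusted p = 4.6e-08 in edgeR).

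BCL2 (ENSG00000171791.13, chr18:63123346-63320128, minus strand), the founding survival gene, was at 14.6, 14.5 and 16.6 CPM with si-NT and at 12.1, 11.3 and 12.1 CPM with si-FRA1 in A375 cells. The groups did not overlap, and BCL2 fell by 0.37 on the log2 scale (standard error 0.0906, edgeR adjusted p = 0.0015). Its 1205Lu levels were 11.7, 11.5 and 11.2 CPM with si-NT against 10.1, 10.6 and 11.3 CPM with si-FRA1. Those groups overlapped, with a log2 fold change of -0.13 (standard error 0.101, adjusted p = 0.36), and the difference between the effects did not pass the test (0.26, standard error 0.133, adjusted p = 0.16).

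BCL2A1 (ENSG00000140379.8, chr15:79960892-79971196, minus strand) was counted 0, 0 and 1 times with si-NT and 1, 5 and 3 times with si-FRA1 in A375 cells, too few to be tested. In 1205Lu cells it was counted 41, 31 and 23 times with si-NT and 24, 15 and 10 times with si-FRA1, or 1.36, 1.38 and 0.946 against 1.17, 0.67 and 0.478 CPM. The 1205Lu groups overlapped, and the log2 fold change of -0.69 (standard error 0.383) did not pass the test (adjusted p = 0.17). The interaction over all 12 samples had an edgeR adjusted p of 0.046, but its size rests on 1 count in the A375 si-NT samples. The call was lost without any of 8 of the 12 libraries, at adjusted p from 0.073 to 0.17.

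In the interaction test over all 12 samples, 4 of the 9 members tested (BCL2L1, MCL1, BCL2L11 and BMF) had a higher silencing effect in 1205Lu than in A375 cells, and 1 (BCL2A1) a lower one. Of the 19452 genes tested, 16.6% had a higher effect in 1205Lu cells and 15.3% a lower one. For BCL2, PMAIP1, BAK1 and BID the effects were not shown to differ.

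**Figure D2:**
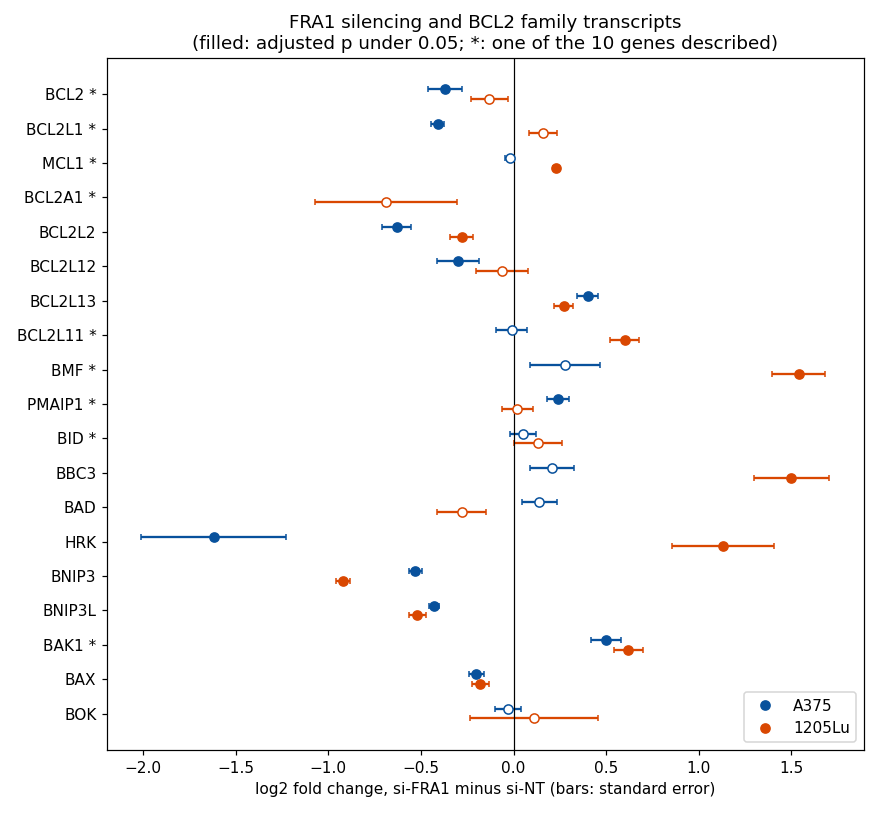
Log2 fold change (si-FRA1 minus si-NT) of the members, marked with asterisks, and of the other BCL2 family genes that could be tested, in A375 (blue) and 1205Lu cells (orange), with standard errors as bars and filled points at an adjusted p under 0.05. In 1205Lu cells BMF lies at 1.54 and BBC3 at 1.5, and HRK lies at -1.62 in A375 and 1.13 in 1205Lu cells.

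The counts of the lists that follow stand beside the same shares over all genes as above, 25.7% rising and 25.1% falling in A375 and 20.6% and 19.9% in 1205Lu cells. Of the 13 other BCL2 family genes on the list, 1 of 10 tested rose and 6 fell in A375 cells, and 3 of 11 rose and 4 fell in 1205Lu cells. BBC3, which encodes the p53-induced BH3-only protein PUMA, was at 2.00, 2.05 and 1.56 CPM with si-NT and at 4.19, 5.36 and 6.50 CPM with si-FRA1 in 1205Lu cells. It rose there by 1.5 on the log2 scale (standard error 0.204, edgeR adjusted p = 5.0e-06), against 0.21 (standard error 0.119, adjusted p = 0.15) in A375 cells. HRK, a BH3-only gene best known in neurons, fell by 1.62 (standard error 0.389) in A375 and rose by 1.13 (standard error 0.274) in 1205Lu cells, on 7 to 60 counts per sample. BCL2L2, which encodes the survival protein BCL-W, fell by 0.63 (standard error 0.0777) in A375 and by 0.28 (standard error 0.0638) in 1205Lu cells. BNIP3, a mitophagy receptor induced by hypoxia, fell by 0.53 in A375 and by 0.92 in 1205Lu cells. BAX, the other pore former, fell by 0.20 and 0.18 on the log2 scale (edgeR adjusted p = 0.00026 and 0.003), where BAK1 rose. BAX was picked out after its values were seen.

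Downstream of the pores, 5 of the 10 mitochondrial death effectors and partners rose and 1 fell in A375 cells, while 1 rose and 6 fell in 1205Lu cells. APAF1, the scaffold of the apoptosome, fell by 0.27 (standard error 0.0576) in A375 and by 0.92 (standard error 0.0653) in 1205Lu cells. MTCH2, the mitochondrial receptor of BID, rose by 0.22 in A375 cells and fell by 0.36 in 1205Lu cells. ENDOG, a mitochondrial nuclease, rose by 0.43 in A375 cells. VDAC3, an outer membrane channel, rose by 0.13 in A375 and fell by 0.38 in 1205Lu cells. Among the caspases, CASP10 and CASP6 rose by 0.61 and 0.53 in A375 cells, and CASP8, which cuts BID, fell by 0.39 in 1205Lu cells. Of the 5 inhibitors of apoptosis tested, 2 rose and 2 fell in A375 cells, and 1 rose and 1 fell in 1205Lu cells. BIRC5, which encodes survivin, fell by 0.13 in A375 and by 0.33 in 1205Lu cells. The changes of BIRC2, XIAP and BIRC6 were between -0.18 and 0.19.

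Of the 5 genes tested that act on MCL1 protein turnover, 2 rose and 2 fell in A375 cells, and 2 rose and 1 fell in 1205Lu cells. FBXW7, a substrate receptor of a ubiquitin ligase that can target MCL1, rose by 0.84 (standard error 0.0542) in A375 cells, and the ligase HUWE1 fell by 0.42 (standard error 0.0147) there. BTRC rose by 0.30 in A375 and 0.32 in 1205Lu cells. The deubiquitinases USP13 and USP9X changed by -0.19 and 0.16 in 1205Lu cells, and USP13 by -0.14 in A375 cells. Of the 13 transcription factors known to act on BCL2 family genes, 2 rose and 8 fell in A375 cells, and 7 rose and 3 fell in 1205Lu cells. TP73, a relative of p53, fell by 1.54 (standard error 0.2) in A375 and by 0.97 (standard error 0.152) in 1205Lu cells. MYC fell by 0.88 (standard error 0.0633) in A375 cells and rose by 0.24 (standard error 0.0341) in 1205Lu cells. DDIT3 (CHOP, a stress factor known to act on BCL2L11) rose by 0.97 (standard error 0.0477) in 1205Lu cells. E2F1 fell by 0.53 in A375 and 0.65 in 1205Lu cells. The 4 p53 targets on the list all rose in both lines, where 10.4% of all genes tested in both lines did. They do not stand for every p53 target, since the p53-induced BBC3 passed the test in 1205Lu cells only. The activity of p53 was not tested. CDKN1A, the cell cycle inhibitor p21, rose by 1.09 (standard error 0.0223) in A375 and 0.76 (standard error 0.0265) in 1205Lu cells. MDM2 rose by 0.58 in A375 and 0.32 in 1205Lu cells, TNFRSF10B by 0.43 in each line, and FAS by 0.48 and 0.39.

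Across the 12 samples, the protein-coding gene whose log2 CPM ran most like that of BMF was TXNIP (Pearson r = 0.9703), and the one most like BCL2L11 was BMF itself (r = 0.957). MCL1 ran most like CCND1 (r = 0.9996), BCL2L1 like LAMA5 (r = 0.9985), PMAIP1 like PSMB3 (r = 0.9969) and BID like NUP133 (r = 0.9961). BAK1 ran most like KLHL11 (r = 0.9718) and BCL2 like TBC1D24 (r = 0.9677). These are descriptions over 12 samples of 2 lines, and a gene that differs strongly between the lines gives a high r with any other such gene.

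The 2 lines started from different levels. With si-NT, 2 of the 9 members tested were higher in 1205Lu than in A375 cells and 4 were lower, where 38.8% of the 18050 genes tested were higher and 39.2% lower. BCL2L1 was 4.93-fold lower in 1205Lu cells (log2 difference -2.30, standard error 0.0512, edgeR adjusted p = 6.9e-19) and MCL1 was 1.92-fold higher (0.94, standard error 0.022, adjusted p = 1.7e-18). BID was 2.93-fold lower (-1.55, standard error 0.0973, adjusted p = 1.5e-11) and PMAIP1 1.93-fold lower in 1205Lu cells (-0.95, standard error 0.0717, adjusted p = 2.9e-10). BCL2 was 1.26-fold lower (-0.33, standard error 0.0945, adjusted p = 0.0034). BCL2A1 was counted 95 times over the 1205Lu and 1 time over the A375 si-NT samples, a ratio of 88.4 per library size with a 95% exact interval of 15.5 to 3530 for counting error. BCL2 and PMAIP1 lie on chromosome 18, whose 304 tested genes had a median log2 difference of -0.55 between the lines, against 0.00 over all genes. The part of that in the values of BCL2 and PMAIP1 was not tested.

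Per kb of exon, MCL1 stood highest in both lines with si-NT, at 36.4 CPM per kb in A375 and 66.3 CPM per kb in 1205Lu cells. In A375 cells BCL2L1 followed at 25.4, PMAIP1 at 14.5, BAK1 at 6.30, BID at 5.34, BCL2L11 at 2.36, BCL2 at 1.21, BMF at 0.572, BIK at 0.322 and BCL2A1 at 0.0139 CPM per kb. The samples of BAK1 and BID overlapped in that order, as did those of BMF and BIK, while the other neighbours did not. In 1205Lu cells PMAIP1 at 7.11 and BAK1 at 6.54 CPM per kb overlapped and came before BCL2L1 at 4.93, BCL2L11 at 2.42, BID at 1.72, BCL2A1 at 1.24, BCL2 at 0.912 and BMF at 0.641 CPM per kb, with no overlap between the later neighbours. With si-FRA1, BMF moved to 1.90 CPM per kb in 1205Lu cells, above BCL2 and level with BID, whose samples it overlapped. The length is that of all annotated exons together, so a gene with long alternative ends, such as BCL2, reads lower than one with a single form.

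**Figure D3:**
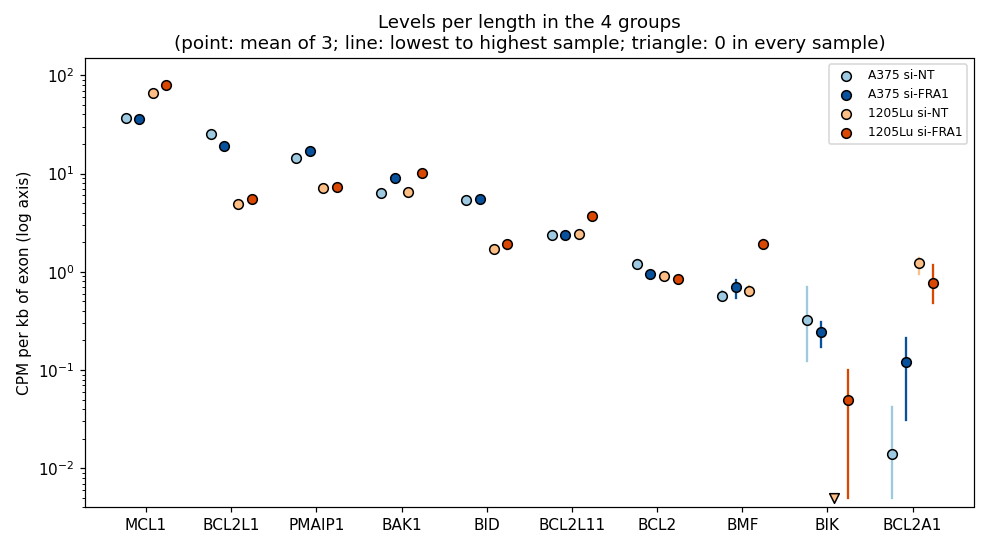
Mean CPM per kb of exon (log axis) of the 10 genes in the 4 groups, with lines from the lowest to the highest of 3 samples and a triangle for 0 in every sample. MCL1 is highest in every group, from 36.0 to 79.0 CPM per kb, and BCL2L1 is between 4.93 and 25.4.

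Cut&Run libraries differed in their counts in peaks, a total that does not separate sequencing depth from enrichment. The FRA1 libraries held 3354095 to 5316527 counts in peaks in A375 and 583750 to 897407 in 1205Lu cells, against 383994 and 314569 in the IgG libraries. FRA1 replicates 2 and 3 of 1205Lu did not differ by more than the sampling noise over 9710 peaks with at least 20 expected counts (chi-square p = 0.425) and were summed and counted as 1 library, which left 3 libraries against 2 between the lines. Over the 17012 peaks that met a lower limit on the expected count, the chi-square p was 7.26e-07. A peak was taken as enriched when all FRA1 libraries of a line reached 10 counts and 4 times the IgG count plus 1, with no p-value since each line had 1 IgG library. By this rule 24 of the 38 member peaks were enriched in A375 and 1 in 1205Lu cells, where 57.4% and 7.09% of all peaks were. This rule used raw counts, and with every library scaled to the same total in peaks no member peak was enriched in either line. That scaling makes the FRA1 and IgG totals equal and so takes out any enrichment shared by all peaks. The share of all peaks passing it was not computed, so it says nothing particular about these genes. On raw counts no member peak was enriched in both lines. The share of all peaks enriched in both was not computed, and with 7.09% enriched in 1205Lu cells few could be. On raw counts each of the 10 genes had an enriched peak in A375 cells, from 1 of 1 at BIK to 5 of 7 at BCL2L1. The share of all genes with such a peak was not computed, so this is not a result about the family.

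**Figure D4:**
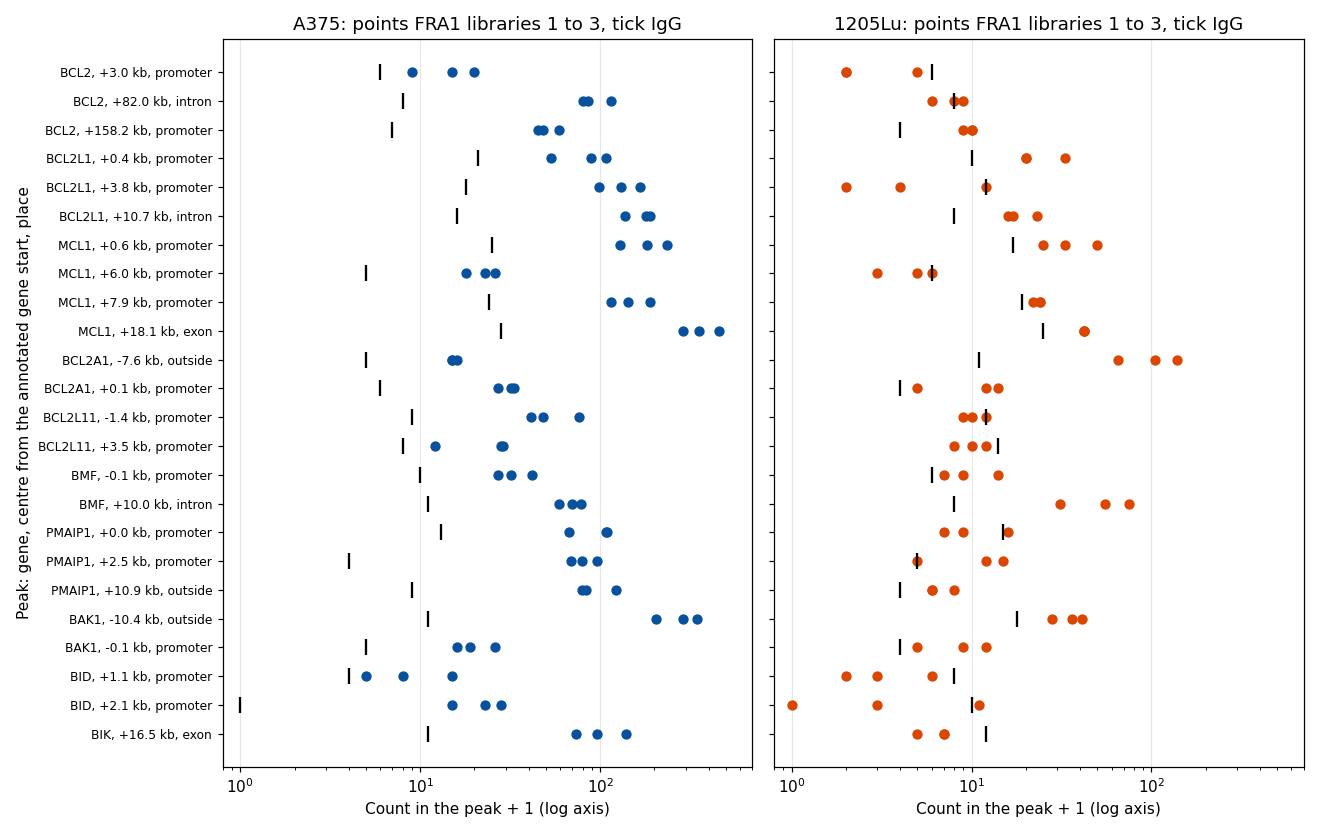
Count plus 1 (log axis) in the named peaks of the members, with the 3 FRA1 libraries as points and the IgG library as a tick, in A375 (left) and 1205Lu cells (right). Libraries were not scaled to each other. The peak upstream of BCL2A1 is the one that stands clear of IgG in 1205Lu (64 to 137 counts) and not in A375 cells (14 or 15 counts).

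The single member peak enriched in 1205Lu cells on raw counts, which was not enriched at 8 times IgG or with scaled libraries, lay upstream of BCL2A1, 7153 bases from the nearest annotated start, at chr15:79978349-79979244, outside the gene. It held 64, 137 and 104 counts in the 1205Lu FRA1 libraries against 10 with IgG, and 14, 15 and 14 counts in A375 against 4 with IgG. It was higher in 1205Lu cells by 5.46 on the log2 scale (standard error 0.243, edgeR adjusted p = 6.35e-15), and by 3.40 to 5.61 under the other scalings. By RNA-seq, BCL2A1 had 95 counts over the 1205Lu and 1 over the A375 si-NT samples. The peak on its promoter held 26, 31 and 32 counts in A375 (IgG 5) and 4, 13 and 11 counts in 1205Lu cells (IgG 3).

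At BMF, an intronic peak at chr15:40098565-40099227, 6859 bases from the nearest annotated start, held 69, 77 and 58 counts in A375 FRA1 libraries (IgG 10). In 1205Lu cells it held 30, 74 and 54 counts (IgG 7), and replicate 1 fell just short of the limit over IgG, without which the peak counted as enriched. It was higher in 1205Lu cells by 2.29 on the log2 scale (standard error 0.232, edgeR adjusted p = 8.28e-09), and by 0.22 with no scaling of the libraries (adjusted p = 0.717). The peak over the BMF promoter, at chr15:40108419-40109530, had 26, 41 and 31 counts in A375 (IgG 9) and 13, 8 and 6 in 1205Lu cells (IgG 5) and was not enriched in either line.

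Upstream of BAK1, a peak at chr6:33589812-33591489, 9519 bases from the nearest start, held 204, 346 and 286 counts in A375 (IgG 10) and 27, 35 and 40 counts in 1205Lu cells (IgG 17). The BAK1 promoter peak at chr6:33580259-33580625 was low, with 15, 25 and 18 counts (IgG 4) in A375 and 11, 8 and 4 counts (IgG 3) in 1205Lu cells. It was not enriched in either line. At MCL1, the peak over the start at chr1:150578164-150580088 held 128, 233 and 182 counts in A375 (IgG 24) and 24, 49 and 32 in 1205Lu cells (IgG 16). Other MCL1 promoter peaks, at chr1:150570821-150572946 and chr1:150573507-150573995, held 114, 188 and 142 counts (IgG 23) and 17, 25 and 22 counts (IgG 4) in A375 cells. In 1205Lu cells they held 21, 23 and 23 (IgG 18) and 5, 4 and 2 counts (IgG 5). The highest MCL1 peak, with 289, 457 and 354 counts in A375 (IgG 27) and 41 in each 1205Lu library (IgG 24), lay at the far end of the gene at chr1:150560710-150562489, where a start of ADAMTSL4 is also within 3 kb.

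BCL2L1 had 7 peaks. The one over its outermost start, at chr20:31723076-31724065, held 52, 106 and 88 counts in A375 (IgG 20) and 19, 32 and 19 in 1205Lu cells (IgG 9), enriched in neither line. The next, at chr20:31719713-31720659, held 98, 165 and 130 counts in A375 (IgG 17) and 11, 1 and 3 in 1205Lu cells (IgG 11). It was higher in A375 cells, with a log2 difference of -1.97 for 1205Lu minus A375 (standard error 0.387, edgeR adjusted p = 0.000131), and under each other scaling. The most counted of its peaks was intronic, at chr20:31712694-31713934, with 136, 187 and 179 counts in A375 (IgG 15) and 16, 22 and 15 in 1205Lu cells (IgG 7).

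At PMAIP1, 66, 107 and 108 counts lay over the start (IgG 12) and 68, 95 and 78 in a second promoter peak at chr18:59902055-59902880 (IgG 3) in A375 cells. In 1205Lu cells these peaks held 6, 8 and 15 counts (IgG 14) and 4, 11 and 14 counts (IgG 4). BCL2 had its most counted peak in an intron at chr18:63237572-63238637, with 84, 114 and 79 counts in A375 (IgG 7) and 8, 7 and 5 in 1205Lu cells (IgG 7). Its peak at an internal start, chr18:63161481-63162396, held 47, 58 and 44 counts in A375 (IgG 6) and 8, 9 and 9 in 1205Lu cells (IgG 3). BCL2L11 had 40, 75 and 47 counts in A375 (IgG 8) and 9, 8 and 11 in 1205Lu cells (IgG 11) at the promoter peak chr2:111117567-111118454. A second BCL2L11 promoter peak, chr2:111122556-111123210, had 11, 28 and 27 counts (IgG 7) and 11, 9 and 7 counts (IgG 13). BID had 22, 27 and 14 counts in A375 (IgG 0) and 10, 0 and 2 in 1205Lu cells (IgG 9) at chr22:17772327-17773046. The second BID promoter peak, chr22:17773480-17773864, had 4, 14 and 7 counts (IgG 3) and 5, 2 and 1 counts (IgG 7) and was too low to be tested between lines. At PMAIP1 a further peak beyond the gene, chr18:59909966-59911790, had 78, 121 and 82 counts in A375 (IgG 8) and 5, 5 and 7 in 1205Lu cells (IgG 3). The peak nearest the outermost BCL2 start, chr18:63316840-63317392, had 8, 19 and 14 counts (IgG 5) and 4, 1 and 1 counts (IgG 5). BIK had 72, 138 and 95 (IgG 10) in A375 and 6, 6 and 4 (IgG 11) in 1205Lu cells at an exonic peak, chr22:43126577-43127923.

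Between the lines, 7 member peaks were higher in 1205Lu and 9 in A375 cells at an edgeR adjusted p under 0.05, where 24.3% and 29.0% of the 53300 peaks tested were. Besides the peak upstream of BCL2A1 and the BMF intronic peak, the 7 were promoter peaks of BCL2A1 (log2 difference 1.02), BMF (0.87), BAK1 (1.4), BCL2L1 (0.90, over its outermost start) and BCL2L11 (1.44). With no scaling these 5 promoter peaks had values of -1.08, -1.27, -0.74, -1.23 and -0.70 in the same order, so their direction turned. By the rule on raw counts, none of the 5 was enriched over IgG in 1205Lu cells. Their mean FRA1 counts there were only 0.643 to 2.33 times the IgG count plus 1. The split depended on the scaling. With no scaling 1 member peak was higher in 1205Lu and 32 in A375 cells, with the total in peaks as library size 5 and 13, and with DESeq2 6 and 4. Over all peaks, 45.6% of those called were higher in 1205Lu cells, 9.67% with no scaling, 39.4% with the total in peaks and 56.2% with DESeq2. The median log2 difference over all peaks was -0.24, and over the 1385 peaks of chromosome 18, where BCL2 and PMAIP1 lie, it was -1.12.

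The AP-1 heptamer, TGACTCA or its reverse complement TGAGTCA, lay in 16 of the 38 member peaks (42.1%), against 57.7% of all peaks, whose lengths vary. It lay in none of the 300-base RefSeq promoter windows (GRCh38.p14, most of each window upstream of a start) of the 8 members that have one, against 4.95% of 35116 windows. GC boxes lay in windows of 6 of the 8, and in 45.0% of all single windows. A member counted if any of its windows held a GC box, and some members have several windows. The shares are therefore in unlike units and show no excess. The stretches below are shown because they hold the heptamer, in capitals, that lies nearest the centre of a described peak. They are given on the plus strand of GRCh38 with 30 bases on each side, or 10 where the stretch overlaps an exon. In the BMF intron the heptamer lay 17 bases from the centre of the peak and at PMAIP1 2 bases, while at BCL2A1 it lay 343 bases from the centre. The BCL2 stretch labelled promoter comes from the peak at an internal start, whose centre lies 158190 bases from the annotated start of the gene. A match is a description of the letters and does not mark a bound site.
BMF intron, chr15:40098880-40098946: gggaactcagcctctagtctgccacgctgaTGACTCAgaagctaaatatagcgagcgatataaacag
BCL2A1 upstream, chr15:79978420-79978486: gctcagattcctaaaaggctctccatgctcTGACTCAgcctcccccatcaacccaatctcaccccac
BAK1 upstream, chr6:33590375-33590441: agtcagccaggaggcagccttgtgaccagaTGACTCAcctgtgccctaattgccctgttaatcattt
PMAIP1 promoter, chr18:59902432-59902498: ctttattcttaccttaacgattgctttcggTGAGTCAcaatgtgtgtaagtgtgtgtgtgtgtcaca
BCL2 promoter, chr18:63161883-63161949: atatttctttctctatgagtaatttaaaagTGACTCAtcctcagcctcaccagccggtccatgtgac
BCL2L11 promoter, chr2:111118165-111118191: ctgttagcggTGACTCAcattcccagt
MCL1 start, chr1:150578681-150578707: gcggaaacaaTGACTCAtggccagaat
PMAIP1 downstream, chr18:59910847-59910913: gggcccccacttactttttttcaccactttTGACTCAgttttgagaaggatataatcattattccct
BID promoter, chr22:17772553-17772619: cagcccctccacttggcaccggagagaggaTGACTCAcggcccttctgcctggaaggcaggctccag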

How the data were processed

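RNA-seq was analysed in 12 samples and Cut&Run in 8 libraries. The authors deposited RSEM expected counts per gene as whole numbers, made with cutadapt 1.8.1, STAR 2.7.7a and RSEM 1.3.0 on GRCh38 and a Gencode annotation from strand-specific libraries. For Cut&Run the authors deposited raw counts per consensus peak, after Bowtie2 2.4.1 and MACS2 2.1.1.20160309. Whether peaks were called per sample is not given in the sources used here. Versions follow the submitters' processing notes.

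Counts were used without normalization by the authors, in edgeR 4.0.16 (R 4.3.3) with filterByExpr, TMM and the quasi-likelihood test, Benjamini-Hochberg adjusted over all features tested. Each line was fitted on 6 samples, the interaction on 12, the lines on the 6 si-NT samples and the peaks on 5 FRA1 libraries. The biological coefficient of variation was 4.51%, 4.20%, 4.45%, 4.46% and 9.85% in that order. CPM use TMM library sizes over the 12 samples. A call needed an adjusted p under 0.05. Promoter peaks had a start of the gene within 3 kb. Gene models, exon lengths and starts came from GENCODE v44, promoter windows from RefSeq, and motifs were searched on both strands with pysam 0.24.0 in Python 3.11.15. Statistical scripts were tested on simulated data.

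The members and lists were chosen with earlier results of these data known. Named besides them are up to 3 called genes of each list with the largest absolute log2 fold change in each line, the gene most alike to each member above 1 CPM on average, each promoter peak, and the member peak with the most FRA1 CPM in each line. The text leaves out 1 gene that meets these criteria. Alternatives were DESeq2 1.42.0, upper-quartile normalization, other filters, a fold limit, a single fit, a replicate block, other limits over IgG, other peak scalings and distances, and each library left out. Protein sequences were not used here.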

Additional observations from a re-analysis of the deposited data

Results flagged for a closer look

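The silencing effect differed between the lines by the edgeR interaction test for 5 of the 9 members tested. Of all 19452 genes tested, 16.6% had a higher effect in 1205Lu cells and 15.3% a lower one. Differences are given as 1205Lu minus A375 on the log2 scale. The difference was 1.27 for BMF, 0.61 for BCL2L11, 0.58 for BCL2L1, 0.27 for MCL1 and -3.3 for BCL2A1. The value of BCL2A1 depends on the prior count of the fit, since the A375 si-NT samples held 1 count in all.

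FOSL1 itself differed by 1.19, as it fell further in A375 cells. The list genes that follow were named for the size of their silencing effect in either line. How many of them passed is therefore not a result about their lists. Among the other named BCL2 family genes the difference was 2.77 for HRK, 1.3 for BBC3, 0.36 for BCL2L2 and -0.38 for BNIP3. Among the mitochondrial partners it was -0.64 for APAF1, -0.57 for MTCH2 and -0.5 for VDAC3. Among the caspases and their inhibitors it was -1.16 for CASP10, -0.54 for CASP6, -0.31 for CASP8 and -0.19 for BIRC5. For the genes of MCL1 turnover it was -0.72 for FBXW7, 0.46 for HUWE1 and 0.22 for USP9X. For the transcription factors and p53 targets it was 1.13 for MYC, 1.13 for DDIT3, -0.32 for CDKN1A and -0.25 for MDM2.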

How the results depend on the processing

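The counts of members changed stayed at 4 in A375 cells and at 4 or 5 in 1205Lu cells under each change of tool, scaling, filter and fit and with each library left out. With the fold limit they were 0 and 1. BCL2L1 in 1205Lu cells passed in the single fit of 12 samples (0.17, adjusted p = 0.025), and the PMAIP1 interaction with upper-quartile normalization (-0.26, adjusted p = 0.044). The BCL2A1 interaction was lost with no filter on low counts (-3.29, adjusted p = 0.08). It was also lost without 1205Lu si-FRA1 replicate 2 or 3, 1205Lu si-NT replicate 1 or 2, A375 si-FRA1 replicate 2 or 3, and A375 si-NT replicate 1 or 2. Over all 12 libraries left out in turn its value ranged from -5.21 to -2.66. Of the RNA values of members, signs turned for some near 0 that passed no test. In A375 cells these were MCL1 (0.00 with no filter) and BCL2L11 (0.02 with no filter, 0.01 with upper-quartile normalization, and -0.06 to 0.04 with each library left out, positive without si-NT or si-FRA1 replicate 2). In 1205Lu cells it was PMAIP1 (-0.03 to 0.06 with each library left out, negative without si-NT replicate 2). Between the lines these were BCL2L11 (-0.02) and BAK1 (-0.01), both with no filter. The cause of these changes was not tested.

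Member peaks enriched in A375 cells (24) numbered 9 at 8 times IgG, 0 with libraries scaled to the same total in peaks, 49 within 50 kb and 9 at promoters. Those enriched in 1205Lu cells (1) numbered 2 at 2 times IgG, 0 at 8 times, 0 with scaling, 0 within the gene span, 6 within 50 kb, 0 at promoters and 1 to 2 with each FRA1 library left out, 2 being without replicate 1. Peaks differing between lines (16) numbered 10 with DESeq2, 33 with no scaling and 31 within 50 kb. With no scaling the median of all peaks was -2.34, and 5 promoter peaks called higher in 1205Lu cells turned negative, those of BMF (-1.27) and BCL2L1 (-1.23) past the test. The low counts in peaks of the 1205Lu FRA1 libraries limit what their peaks can show.

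Replicate numbers did not pair the samples. For this check the group mean of each gene was first subtracted. What was left correlated at -0.0162 to 0.0188 between same-numbered si-NT and si-FRA1 samples of a line. With the replicate block the counts of members were 4 in A375, 4 in 1205Lu, 5 for the interaction and 6 between the lines, with 15 member peaks.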
